A study of Mus musculus with 4 samples.

Results

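The interferon-induced genes described here are 9 genes of the embryonic mouse forebrain: Stat2, Irf7, Rsad2, Ifit1, Ifit3, Bst2, Isg15, Usp18 and B2m. They were chosen by gene symbol from a table of 48795 genes, and all 9 were among the 22158 genes left after a filter on low counts. RNA was sequenced from C57BL/6 telencephalon dissected at embryonic day 14, in 2 control libraries (genotype Ctcf floxed) and 2 Ctcf-null libraries (Ctcf floxed with NestinCre), numbered as 2 pairs. Both genotypes thus carry floxed Ctcf. Nestin sequences drive Cre recombinase in neural progenitors, so cells of other origin in the tissue, such as microglia, endothelium and blood cells, are not the intended targets. CTCF is a DNA-binding protein that anchors chromatin loops together with cohesin, and the comparison asks which transcripts differ when the gene is deleted.

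Interferons are secreted when a cell senses foreign or misplaced nucleic acid. Type I interferon binds the receptor made of IFNAR1 and IFNAR2, the kinases JAK1 and TYK2 phosphorylate STAT proteins, STAT2 among them, and these join IRF9 to form a complex that binds the interferon-stimulated response element in the promoters of target genes. The induced proteins block viral replication, mark proteins with ISG15, present peptides on class I molecules and feed back on the pathway. Most of these genes are at low levels in tissue that has met no interferon.

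Promoters are shown first. Their letters were not read in choosing the genes, but genes chosen as interferon-induced are those the response element serves. Matches to it are therefore a description and no independent support for the choice. The core of the response element was searched as GAAANNGAAA, or TTTCNNTTTC on the other strand, in the 250 bases before the start of transcription. RefSeq promoters (build GRCm38.p6) were used, which were found for 8 of the 9 genes. The core was present in 7 of these 8 (Rsad2, Ifit1, Ifit3, Isg15, Stat2, Bst2 and B2m, but not Irf7), against 2.98% of 32851 promoters of the same length. The other interferon motif searched, TTCNNNGAA (the gamma-activated sequence, which reads the same on both strands), was present in Bst2 alone, against 7.02% of promoters. A match describes the letters and shows no binding. Printed below are the last 150 bases before the start for 5 members and for Cmpk2, the neighbour of Rsad2, which holds no match to either motif in its 250 bases. Capitals mark the response-element core. The windows are chr12:26456453-26456602 (minus strand) for Rsad2, chr12:26469065-26469214 (plus) for Cmpk2, chr19:34640739-34640888 (plus) for Ifit1, chr4:156200819-156200968 (minus) for Isg15, chr8:71537473-71537622 (minus) for Bst2 and chr2:122147537-122147686 (plus) for B2m.
Rsad2: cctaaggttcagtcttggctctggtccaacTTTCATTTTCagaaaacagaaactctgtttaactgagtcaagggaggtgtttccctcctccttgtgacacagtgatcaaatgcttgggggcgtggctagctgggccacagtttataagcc
Cmpk2: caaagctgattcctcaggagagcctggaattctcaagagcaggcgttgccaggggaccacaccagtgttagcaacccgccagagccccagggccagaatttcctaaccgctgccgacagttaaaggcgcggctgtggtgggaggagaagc
Ifit1: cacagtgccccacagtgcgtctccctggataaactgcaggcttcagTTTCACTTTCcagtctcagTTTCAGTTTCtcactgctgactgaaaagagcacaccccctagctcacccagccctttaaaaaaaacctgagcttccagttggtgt
Isg15: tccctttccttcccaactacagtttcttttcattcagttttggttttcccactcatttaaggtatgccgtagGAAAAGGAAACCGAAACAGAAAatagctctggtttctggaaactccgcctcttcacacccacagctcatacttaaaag
Bst2: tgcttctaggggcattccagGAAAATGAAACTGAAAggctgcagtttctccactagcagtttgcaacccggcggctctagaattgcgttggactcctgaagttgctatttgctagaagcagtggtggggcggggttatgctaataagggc
B2m: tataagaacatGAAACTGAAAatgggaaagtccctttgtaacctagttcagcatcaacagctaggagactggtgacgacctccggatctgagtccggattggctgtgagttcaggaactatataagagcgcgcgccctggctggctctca
In Isg15 the capitals cover 3 overlapping matches, and in Bst2 they cover 2. Ifit1 has 2 separate matches, which begin 104 and 85 bases before the start. The single matches in Rsad2 and B2m begin 120 and 139 bases before it.

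The libraries held 25519331 to 43812558 reads. Ctcf itself was at 436.72 and 1133.21 normalized read counts in controls 1 and 2, and at 38.89 and 61.96 in Ctcf-null 1 and 2. A normalized read count is a gene's reads divided by the library's size factor, with no division by gene length. Neurod6, a transcription factor gene of excitatory cortical neurons, was read in all 4 libraries at 25181 to 35715. Libraries of different pairs differed more than the genotypes, so values are compared within pairs. In limma with the pair as a block, 3041 genes passed an adjusted p of 0.05, of which 26.7% were higher in Ctcf-null tissue. That share was 40.2% in edgeR with TMM factors and 56% with upper-quartile factors. With no block, limma called 0 genes (170 had an unadjusted p under 0.05) and edgeR called 0 (174). With the block, a p-value weighs the mean fold change of the 2 pairs against its error. That error takes in how far the pairs disagree, with variance borrowed from other genes. The borrowed part dominates in limma (18.1 prior degrees of freedom against 1 residual), so a gene's own disagreement enters little. The labels do not tell whether each library is a separate embryo, so that disagreement may be technical.

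Of the 9 genes, 1 rose in Ctcf-null telencephalon in limma with the block (B2m, 1.29-fold) and 0 fell. The share of all tested genes that rose was 3.67%, and the share that fell was 10.1%. In edgeR's quasi-likelihood test with the block, 2 of the 9 rose (B2m and Usp18) and 0 fell, against 4.8% and 7.13% of all genes. Both Ctcf-null libraries lay above both controls for 2 members (Rsad2 and Usp18), which held for 6.45% of all tested genes, and below both for 0 members, against 7.64%. Values were higher in both pairs for 6 of the 9, lower in both for 1 (Ifit1) and split for Ifit3 and Irf7, while 24.5% of all tested genes were higher in both pairs and 42.9% lower. The median log2 fold change was 0.31 over the 9 members and -0.07 over all tested genes. In bulk tissue, fewer cells of a type and less RNA per cell cannot be told apart.

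**Figure D1:**
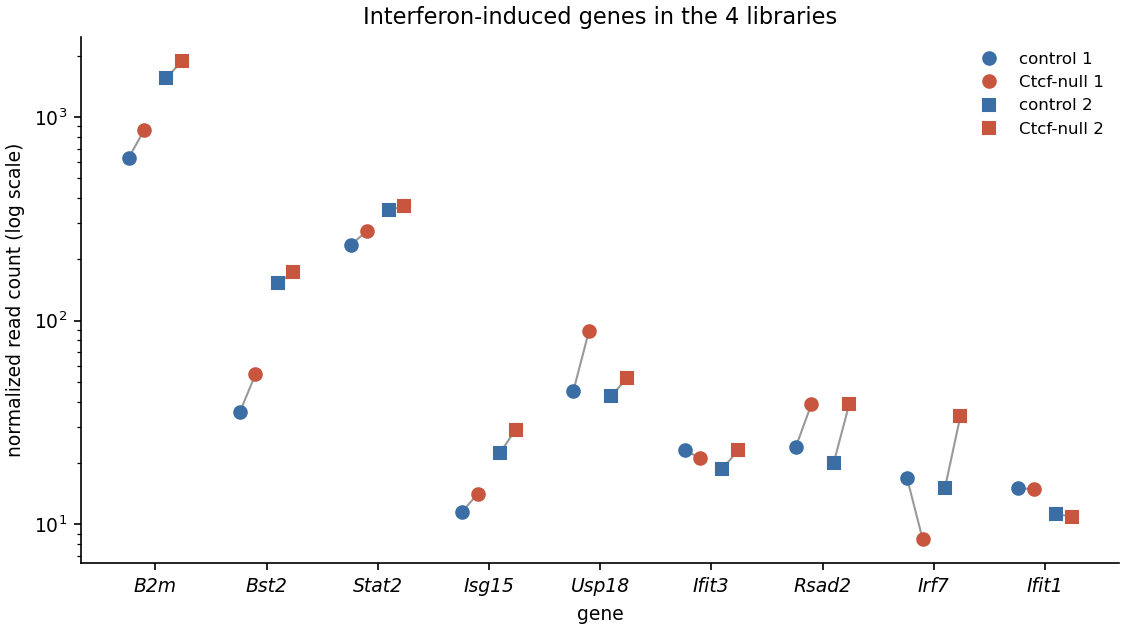
Normalized read count (log scale) of the 9 genes in the 4 libraries, ordered by mean level per kilobase of exon, with circles for pair 1, squares for pair 2, blue for control, red for Ctcf-null, and grey lines joining the libraries of a pair. Rsad2 and Usp18 have both red points above both blue points. For B2m, Bst2, Isg15, Stat2 and Ifit1 the step between pairs is larger than the step between genotypes.

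Levels can be compared between genes only per length. The mean over the 4 libraries, in normalized counts per kilobase of exon, was highest for B2m at 1433 (731 to 2197 over the libraries). Bst2 followed at 115 (39.4 to 191) and Stat2 at 51.6 (39.8 to 61.5), and these ranges overlap. Isg15 had 25.6 (15.3 to 38.6), Usp18 20.5 (15.2 to 31.9) and Ifit3 12.3 (10.8 to 13.3). Rsad2 had 7.02 (4.62 to 8.97), Irf7 4.93 (2.25 to 9.01) and Ifit1 4.91 (4.12 to 5.69). The ranges of Isg15 and Usp18 overlap, as do those of Rsad2, Irf7 and Ifit1, so neighbours in these groups do not differ beyond the spread of the libraries. Ifit3 lay below Usp18 and above Rsad2 in all 4 libraries. Of the 9 genes, 5 had fewer than 60 reads in every library.

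Stat2 (ENSMUSG00000040033.15, chromosome 10, 128270559 to 128292849, GRCm38) encodes the signal transducer that carries the type I interferon signal to the nucleus. Its normalized count was 235.7 in control 1 and 348.97 in control 2, against 275.06 and 364.47 in the Ctcf-null libraries. The groups overlap, because control 2 lies above Ctcf-null 1. The fold change in limma with the block was 1.10 (95% interval 0.928 to 1.31, adjusted p = 0.489), so this transcript did not pass and a change beyond 1.31-fold lies outside the interval.

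Irf7 (ENSMUSG00000025498.15, chromosome 7, 141262706 to 141266481) encodes the transcription factor that amplifies interferon production. Its values were 16.9 and 15.01 in the controls, and 8.49 and 34.02 in the Ctcf-null libraries. The 2 pairs went opposite ways: the ratio of Ctcf-null to control was 0.502 in pair 1 (12 against 19 reads, 95% counting interval 0.222 to 1.09) and 2.27 in pair 2 (28 against 12 reads, 1.12 to 4.89). These intervals are exact, condition on the sum of reads and cover counting error only, since the labels name no molecular identifiers. The limma fold change was 1.08 (0.568 to 2.04, adjusted p = 0.911), and this interval holds both no change and a change of 2.04-fold. Both pair ratios lie outside it, since its variance is mostly borrowed from other genes. It is thus narrower than the spread of the 2 pairs. Exons of Irf7 share 45 bases with exons of Phrf1 on the opposite strand, which was at 524 to 1282 normalized counts. The labels do not state strand, so reads from those bases cannot be assigned.

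Rsad2 (ENSMUSG00000020641.15, chromosome 12, 26442746 to 26456452, minus strand) encodes viperin, a radical SAM enzyme that makes a chain-terminating nucleotide from CTP. Controls 1 and 2 had 24.01 and 20.01 normalized counts, against 38.89 and 38.88 in Ctcf-null tissue. Both Ctcf-null values lie above both controls. The ratio was 1.62 in pair 1 (55 against 27 reads, 95% counting interval 1.00 to 2.67) and 1.94 in pair 2 (32 against 16 reads, 1.04 to 3.79). In limma the fold change was 1.74 (1.13 to 2.68, SE 0.30 on the log2 scale), with an adjusted p of 0.0837, and in edgeR the adjusted p was 0.0655. Rsad2 therefore had the largest estimate of the 9 and passed in neither fit.

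The 2 other genes tested within 250 kb of Rsad2 both rose in limma with the block. Cmpk2, a mitochondrial nucleotide kinase gene that is itself interferon-inducible, starts 12752 bases beyond the start of Rsad2 and is transcribed away from it. It went from 191.23 and 245.15 to 1827.16 and 1719.06 normalized counts, a fold change of 8.15 (6.97 to 9.53, limma adjusted p = 3.6e-13). Rnf144a, a ubiquitin ligase gene 27492 bases beyond the end of Rsad2, went from 447.39 and 706.69 to 994.19 and 1364.32, a fold change of 2.07 (1.81 to 2.36, adjusted p = 1.0e-07). The intervals of Rsad2 and Cmpk2 do not meet, whereas those of Rsad2 and Rnf144a do. In controls, Cmpk2 was at 45.9 and 58.9 normalized counts per kilobase of exon and Rsad2 at 5.54 and 4.62. The difference between the fold changes of neighbours was not tested.

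**Figure D2:**
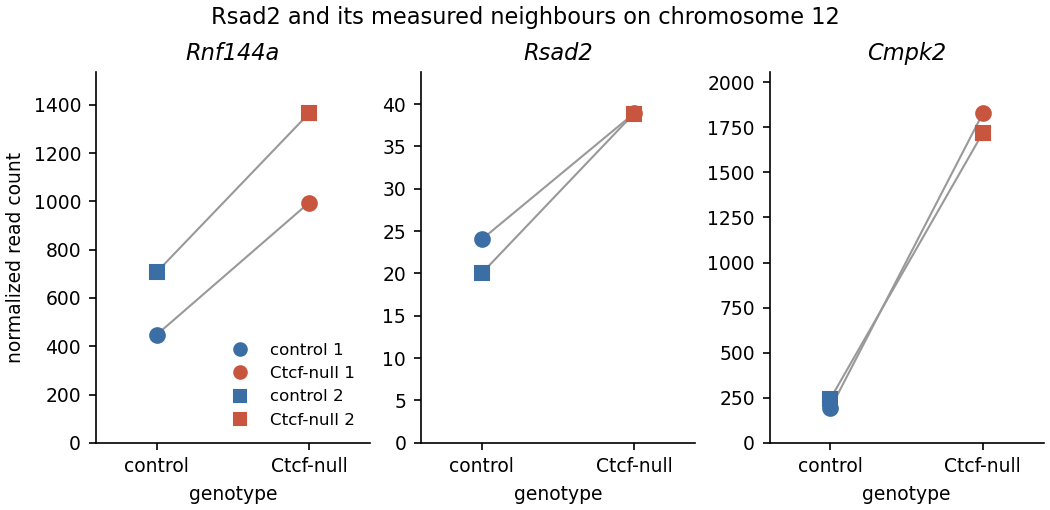
Normalized read count of Rsad2 and the 2 other tested genes within 250 kb, in the order of their positions on chromosome 12, with each panel on its own axis from 0 (circles pair 1, squares pair 2, grey lines joining a pair). All 3 genes are higher in both Ctcf-null libraries, with Rsad2 at 20.01 to 38.89 and Cmpk2 at 191.23 to 1827.16.

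Ifit1 and Ifit3 encode tetratricopeptide proteins that bind viral RNA, and they lie in a cluster on chromosome 19 (Ifit1 at 34640871 to 34650009, Ifit3 at 34583531 to 34588731). Ifit1 (ENSMUSG00000034459.8) was at 15.12 and 11.26 in controls and at 14.85 and 10.93 in Ctcf-null libraries, from 9 to 21 reads. Control and Ctcf-null values of a pair were nearly equal. Its limma fold change was 0.978 (0.537 to 1.78, adjusted p = 0.973), a sign that turns with TMM or upper-quartile factors (edgeR log2 fold change 0.025 and 0.067). Ifit3 (ENSMUSG00000074896.3) was at 23.13 and 18.76 in controls and at 21.21 and 23.08 in Ctcf-null libraries. The groups overlap and the limma fold change was 1.06 (0.647 to 1.73, adjusted p = 0.910). Ifit3 values are uncertain, since 51.2% of the 50-base stretches of its transcript also occur in transcripts of Ifit3b. Ifit3b, a near copy that did not pass the filter on low counts, was at 9.78 and 8.76 in controls and at 12.02 and 3.64 in Ctcf-null libraries. For Ifit1, 7.13% of the stretches are shared, mostly with Ifit1bl2.

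Bst2 (ENSMUSG00000046718.8, chromosome 8, 71534255 to 71537456, minus strand) encodes tetherin, a membrane protein that holds budding virus on the cell surface. Controls had 35.58 and 152.6 normalized counts, and Ctcf-null tissue 54.45 and 172.51. Pair 2 was 4.29 times pair 1 in controls and 3.17 times in Ctcf-null tissue, more than the within-pair ratios of 1.53 and 1.13. The fold change was 1.31 (0.983 to 1.74, limma adjusted p = 0.216; edgeR adjusted p = 0.223).

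Isg15 (ENSMUSG00000035692.6, chromosome 4, 156199424 to 156200818, minus strand) encodes the ubiquitin-like protein that is attached to other proteins. It was at 11.56 and 22.51 in controls and at 14.14 and 29.16 in Ctcf-null libraries, from 13 to 24 reads. Control 2 lay above Ctcf-null 1, so the groups overlap. The limma fold change was 1.24 (0.737 to 2.10, adjusted p = 0.633). Of the 50-base stretches of its transcript, 3.96% also occur in AC151275.1.

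Usp18 (ENSMUSG00000030107.10, chromosome 6, 121245906 to 121270917, plus strand) encodes the protease that removes ISG15 and restrains signalling at the type I receptor. It was at 45.36 and 42.53 in controls and at 89.1 and 52.24 in Ctcf-null libraries. Both Ctcf-null values lay above both controls, though by unequal amounts, with a ratio of 1.96 in pair 1 (126 against 51 reads, 95% counting interval 1.41 to 2.78) and 1.23 in pair 2 (43 against 34 reads, 0.765 to 1.99). The limma fold change was 1.54 (1.09 to 2.19, adjusted p = 0.0949), while edgeR gave 1.70 with an adjusted p of 0.0352. Usp18 thus passed in edgeR with the block and not in limma. Its exons share 124 bases with Gm44148 on the opposite strand, which was at 7.29 to 12.51.

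B2m (ENSMUSG00000060802.8, chromosome 2, 122147686 to 122153083, plus strand) encodes beta-2 microglobulin, the invariant light chain of class I molecules. It was the most abundant of the 9 genes, at 628.84 and 1548.47 in controls and at 862.67 and 1889.15 in Ctcf-null libraries. The groups overlap, because pair 2 was 2.46 times pair 1 in controls and 2.19 times in Ctcf-null tissue. Within pairs the ratio was 1.37 (95% counting interval 1.25 to 1.51) and 1.22 (1.13 to 1.32). B2m rose in limma with the block (fold change 1.29, 1.14 to 1.46, SE 0.08 on the log2 scale, adjusted p = 0.0054) and in edgeR with the block (adjusted p = 0.0012). It did not pass in DESeq2 with the block (adjusted p = 0.0664) or in limma without it (SE 0.69, adjusted p = 1.00).

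**Figure D3:**
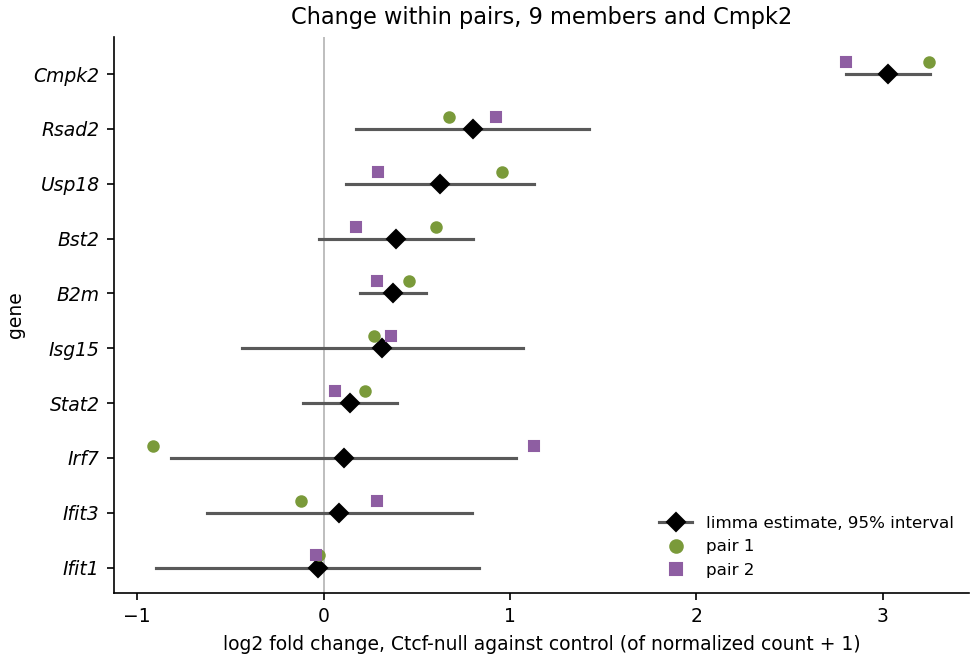
Log2 fold change (Ctcf-null against control, of normalized count + 1) of the 9 members and of Cmpk2, with black diamonds and bars for the limma estimate with the pair block and its 95% interval, and circles and squares for pairs 1 and 2. Estimates of the 9 run from -0.03 (Ifit1) to 0.80 (Rsad2), the pairs of Irf7 lie on opposite sides of 0, and Cmpk2 stands at 3.03.

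B2m pairs with heavy chains, and the genes for class I antigen presentation went both ways. Of 20 tested, 3 rose and 1 fell in limma, against 3.67% and 10.1% of all tested genes. Their median log2 fold change was 0.06. In edgeR with the block 4 rose and 1 fell, against 4.8% and 7.13% of all tested genes. The additional rise was that of Psmb9, a subunit of the immunoproteasome, at 17.79 and 16.26 against 31.11 and 35.23 normalized counts. H2-K1, a classical heavy chain, rose 1.87-fold (1.48 to 2.36, adjusted p = 6.2e-04), from 62.26 and 218.89 to 98.29 and 488.38 normalized counts. H2-D1, another classical heavy chain, rose 1.21-fold (adjusted p = 0.0453), and H2-Q7, a nonclassical one, 1.95-fold (adjusted p = 0.0184). H2-T23, a nonclassical heavy chain gene, fell from 149.43 and 346.47 to 57.98 and 69.25, a log2 fold change of -1.83 (SE 0.20, adjusted p = 2.1e-06). Heavy-chain genes resemble each other in sequence, and no source used here states how shared reads were counted, so the split between them is uncertain.

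B2m is also abundant in microglia, the macrophages of the brain. In a list of 12 microglial markers, all measured and none at 0 in any library, 2 rose in limma, C1qb among them. In edgeR with the block 3 rose, and 0 fell in either fit. Values were higher in both pairs for 10 of 12, and the median log2 fold change was 0.30. For this and the marker lists below, the shares over all tested genes were 3.67% up and 10.1% down in limma. In edgeR they were 4.8% and 7.13%, and 24.5% of all tested genes were higher in both pairs. Summed over the microglial list, controls had 1859 and 4420 normalized counts and Ctcf-null tissue had 2398 and 5494. That sum was 1.29 and 1.24 times the control in pairs 1 and 2, beside 1.37 and 1.22 for B2m. Between pairs it differed 2.38-fold in controls and 2.29-fold in Ctcf-null tissue, beside 2.46-fold and 2.19-fold for B2m. Such a difference between pairs was not particular to microglia. Pair 2 was 2.04 and 2.19 times pair 1 for the summed endothelial markers and 1.76 and 2.04 times for neural progenitor markers. For choroid plexus markers it was lower, at 0.342 and 0.377 times. The part of microglia in the B2m result was not tested. Markers of border macrophages and monocytes showed 0 of 8 tested genes called, with a median of 0.13. Markers of lymphocytes, NK and plasmacytoid dendritic cells showed 0 of 3, with a median of 0.17, and those of neutrophils and mast cells 1 of 4 (Ngp, higher, in limma alone). Of 7 endothelial markers 2 fell (Pecam1 and Esam) and the median was -0.31. None of the 8 erythroid or 8 pericyte and meningeal fibroblast markers was called, though the summed erythroid level was 0.688 times the control in pair 1 and 1.09 times in pair 2. Of 6 choroid plexus markers 2 rose (Ttr and Otx2), with a summed level 1.31 and 1.44 times the control. Of 7 neural progenitor markers 3 fell, among them Hes5 and Fabp7, and of 6 neuronal markers 3 fell (Tubb3, Neurod6 and Gad2), with 0 rises in either list in limma. In edgeR with the block 1 gene rose in each (Pax6 and Dcx).

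The other interferon-stimulated genes, 63 in all with 53 tested, had 4 rises and 1 fall in limma and a median log2 fold change of 0.27, close to the 0.31 of the 9 members. In edgeR with the block 4 rose and 0 fell, against 4.8% and 7.13% of all tested genes. Of the 53, 32 were higher in both pairs and 5 lower, against 24.5% and 42.9% of all tested genes. The limma shares over all tested genes were 3.67% for rises and 10.1% for falls. Besides Cmpk2, the rises were those of Trim30a, a member of the tripartite motif family (25.79 and 20.01 to 46.67 and 48.6 normalized counts, 2.05-fold, adjusted p = 0.0199), Xaf1, a pro-apoptotic factor (1.76-fold, adjusted p = 0.0256), and Ifit1bl1, a relative of Ifit1 (2.39-fold, adjusted p = 0.0354). Ube2l6, the conjugating enzyme for ISG15, fell to 0.792 of the control in limma (adjusted p = 0.0474) and did not pass in edgeR (adjusted p = 0.0982). Mx1 and Oas1b did not pass the filter on low counts, so no change is given for them. Oas2, Oas3, Ifih1 and Cxcl10 did not pass the test, with adjusted p of 0.63 to 0.98 in limma. Others that did not pass had a lower adjusted p. Among them were Ifi35 (1.53-fold, limma adjusted p = 0.0795) and Ifi44 (1.86-fold, 0.0813), and in the other direction Oas1c (0.597 of the control, 0.309).

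Upstream of these genes, interferon ligands were at low levels. Summed over the 11 ligand genes, controls 1 and 2 had 50.7 and 6.25 normalized counts, and Ctcf-null 1 and 2 had 35.35 and 13.34. Of these 11 genes 1 was tested (Ifnl3, not called), with log2 fold changes of -0.62 in pair 1 and 1.01 in pair 2. Ifnb1, a type I interferon made early in infection, had 5 and 0 reads in the controls, and 6 and 1 in Ctcf-null tissue. Ifng, the type II interferon, had 0 reads in each of the 4 libraries, which allows up to 3 per library. Of 19 tested genes for receptors and signalling, 0 rose and 1 fell, and the median log2 fold change was -0.02. Over all tested genes, 3.67% rose and 10.1% fell in limma. The fall was that of Ifngr2, a chain of the type II receptor, to 0.761 of the control (adjusted p = 0.0025). Irf9, the DNA-binding part of the complex, was at 274.84 and 197.62 against 254.56 and 185.88 (adjusted p = 0.686). The receptor genes Ifnar1 and Ifnar2 did not pass either (log2 fold changes -0.10 and -0.32, adjusted p = 0.529 and 0.185). Among 15 tested genes of nucleic acid sensing, 0 rose and 2 fell, with a median of -0.12. That count of falls is near the 10.1% of all tested genes. The 2 that fell were Rnaseh2a and Rnaseh2b, subunits of the enzyme that removes ribonucleotides from DNA. They were at 0.851 and 0.822 of the control (adjusted p = 0.0492 and 0.0193). In edgeR with the block neither passed.

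**Figure D4:**
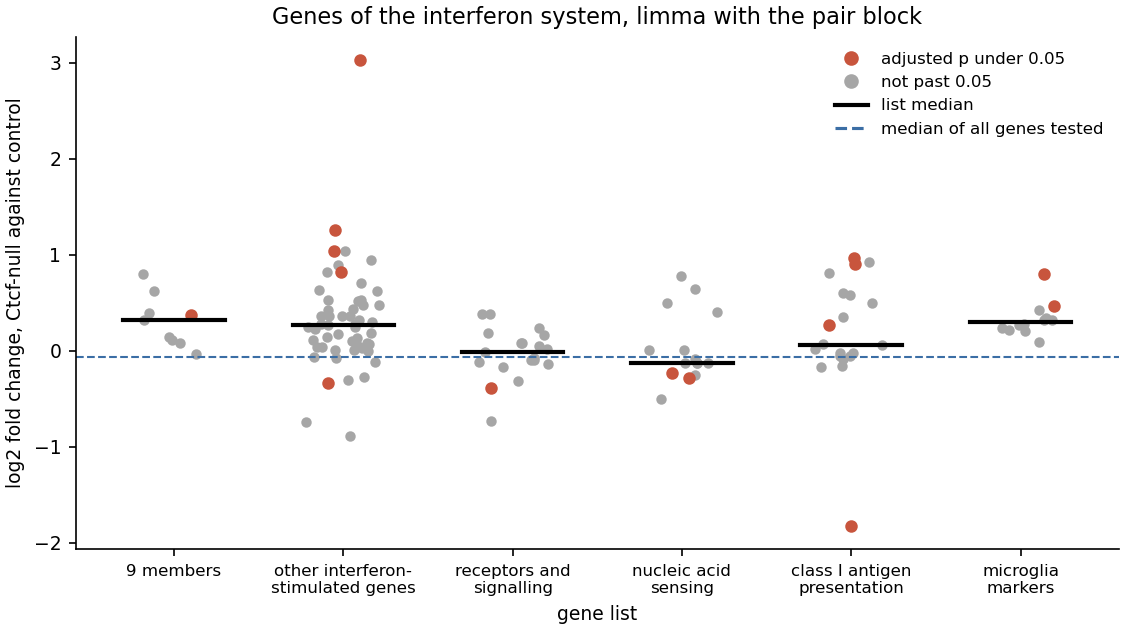
Log2 fold change (Ctcf-null against control, limma with the pair block) of every tested gene in 6 lists, with red for genes past an adjusted p of 0.05, black bars for list medians and a dashed line for the median of all tested genes. The medians of the 9 members (0.31), the other interferon-stimulated genes (0.27) and microglial markers (0.30) lie above the dashed line at -0.07, while those of sensing genes (-0.12) and of receptors and signalling (-0.02) lie near it.

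The neighbours of the other members are counted beside the 3.67% of all tested genes that rose and the 10.1% that fell in limma with the block. For edgeR with the block these shares were 4.8% and 7.13%. Within 250 kb, 1 of 10 tested neighbours of Usp18 rose (Iqsec3), and 1 of 7 rose for both Ifit1 and Ifit3, which share the neighbour Ifit1bl1. Of the neighbours of Irf7, 9 of 31 fell in limma (4 in edgeR with the block) and 0 rose, of Stat2 5 of 23 fell (4 in edgeR) and 0 rose, of Isg15 2 of 16 fell (2 in edgeR) and 0 rose, and of Bst2 3 of 24 fell (2 in edgeR) and 1 rose. None of the 10 neighbours of B2m was called in either fit with the block.

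Over the 4 libraries, the genes whose centred log2 profile lay nearest to that of Rsad2 were AU019990, Papln and 1700010I14Rik, at Euclidean distances of 0.036, 0.077 and 0.098. Nearest to the median profile of the 9 members were Rrm2b, Susd1 and A830031A19Rik, at 0.085, 0.101 and 0.103. With 22158 genes and 4 libraries such near matches are a description only.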

How the data were processed

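The authors deposited 1 table of 48795 genes. Per the file headers, it holds a normalized read count for each gene and library, a signal not divided by gene length, and log2 fold changes per pair. STAR 2.5.3, DESeq2 and mm10 are named per the submitters' processing notes. No source used here names the gene counter or the annotation release. Values were whole multiples of 1 step per library for at least 99.98% of nonzero values (tolerance 0.005), which gave the reads. Genes kept by filterByExpr were fitted with limma 3.58.1 (mean-variance trend, R 4.3.3) on log2(value + 1), with genotype and pair as terms and Benjamini-Hochberg adjustment over all 22158 genes at 0.05. The scale understates the change of low genes. Tests were two-sided. The fit has 1 residual degree of freedom and 18.1 prior ones. Alternatives were edgeR 4.0.16 and DESeq2 1.42.0 on the reads, other scalings, pseudocounts, filters, no block, and libraries left out.

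Pairing follows the submitters' design text, which names 2 pairs, and the fold changes per pair in the deposited table. No source used here states what a pair shares. Same-numbered libraries correlated at r = 0.987 and 0.984 across genes, and libraries of 1 genotype at 0.894 and 0.903. The correlation of their deviations from the genotype means was 0.923. A chi-square test of the counts gave 447 per degree of freedom between the controls and 343 between the Ctcf-null libraries, far above sampling noise.

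Members and lists were chosen with earlier results of these data known. All 9 members are named. Of each list, up to 4 called genes with the smallest p and equal sign in both pairs are named, along with a fixed set of pathway genes. Names of other marker genes called, of genes that did not pass and of neighbours other than those of Rsad2 were added after their values were seen. Gene positions and exon lengths came from GENCODE M21 (GRCm38), and promoters from RefSeq. Values of some genes in the lists are not reported here.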

Additional observations from a re-analysis of the deposited data

How the results depend on the processing

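The count of genes called, 3041 in limma with the block, was 832 in DESeq2 with the block and 0 without the replicate block in both limma and edgeR. Leaving out single libraries, fitted without the block, gave 0 to 2 calls (Tuba1a and Ubb without Ctcf-null 1). For B2m the log2 fold change of 0.37 did not pass without the replicate block in limma (0.37) or edgeR (0.39) or in DESeq2 with it (0.40), and passed in the 8 other alternatives that kept all libraries. Usp18, at 0.62, passed in edgeR with the block with TMM factors (0.77) and upper-quartile factors (0.81), and its adjusted p was 0.0214 to 1.00 over the alternatives. Rsad2 passed in none (adjusted p 0.0532 to 1.00). Ifit1, at -0.03, turned to 0.025 with the block and 0.027 with no replicate block in edgeR with TMM factors, to 0.067 with upper-quartile factors and to 0.019 in limma on TMM-rescaled values. In edgeR with the block, calls were 2 in place of 1 among the 9 members, 0 in place of 2 in nucleic acid sensing, 0 in place of 1 in neutrophils and mast cells and 1 in place of 2 in endothelium. The cause was not tested.

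Leaving out a library or a pair moved the log2 fold change between -0.28 and 1.02 for B2m, -0.65 and 1.42 for Bst2, -0.92 and 1.13 for Irf7, -0.18 and 0.81 for Isg15, -0.14 and 0.42 for Stat2, -0.12 and 0.29 for Ifit3, -0.24 and 0.17 for Ifit1, 0.25 and 1.00 for Usp18, and 0.67 and 0.92 for Rsad2. B2m, Bst2, Isg15 and Stat2 turned negative without control 1 or without Ctcf-null 2, where the lone library is assumed to vary like the other group and the larger difference between pairs enters. Without a whole pair there is no test. Low counts limit Ifit1, Ifit3, Isg15, Irf7 and Rsad2. The stricter filter, a mean of at least 50, gave no value for these 5.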
